A study of Bos taurus with 15 samples.

Results

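Complement is a cascade of plasma and tissue proteins that marks surfaces and immune complexes for clearance, and its genes are transcribed in many tissues besides liver. The transcripts described here are those of 10 of its genes in bovine endometrium, the lining of the uterus: the C1q chains C1QA, C1QB and C1QC, the C1 proteases C1R and C1S, the C1 inhibitor SERPING1, the components C4A and C3, and the alternative pathway proteases CFB and CFD. They were taken by gene name from the 32671 entries of the deposited table, and all 10 were among the 19962 entries with enough reads to be tested. The rule used no measured value, but the list of genes was chosen with earlier results of these data known.

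Endometrial biopsies were taken on day 14 of pregnancy from 15 beef heifers, with 5 heifers each in the classes High-fertile, Sub-fertile and Infertile. Heifers of all classes shared the same treatment: estrus was synchronised with prostaglandin, GnRH, progesterone and estradiol, and an embryo produced in vivo was placed on day 7 in the horn on the side of the corpus luteum. The biopsy was taken with forceps from that horn after the uterus had been flushed. The sources used here do not say how heifers were put in classes, how old they were or whether an embryo was recovered. Each library is 1 heifer, named below by its class and a number that carries no other meaning, as in High-fertile 5. The comparisons ask whether the endometrium of the lower fertility classes differs from the High-fertile one, with both lower classes set against the same 5 High-fertile libraries.

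In the classical pathway, C1q binds to immune complexes or altered cells, C1r and C1s bound to it cleave C4 and C2, and the products cleave C3. Factor D cleaves factor B bound to C3b, which gives the alternative pathway convertase that amplifies C3 cleavage, and the C1 inhibitor shuts C1r and C1s down. Macrophages are a known source of C1q, fibroblasts and endothelium transcribe C1r, C1s and the C1 inhibitor, and complement components are among the proteins of uterine secretions.

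Libraries held 38017136 to 62858724 counts. Levels below are CPM, read counts scaled for library size and composition, and differences are log2 fold changes with their standard error from edgeR's quasi-likelihood test. Adjusted p values are Benjamini-Hochberg values over all genes tested, with a threshold of 0.05. The libraries fell into sets of 8, 5 and 2 by their counts of 372 pseudogene and ribosomal RNA entries. The labels name no batch that these sets could be. The 5-library set holds Sub-fertile 1, 2 and 5 and Infertile 3 and 5 but no High-fertile library, and the 2-library set holds High-fertile 1 and Infertile 2. Infertile 2 stood apart, with a median rank correlation with the other libraries of 0.924 against 0.955 to 0.975 for the rest. Stromal and epithelial markers were abundant in all libraries, with means by class of 7347 to 8425 CPM for COL3A1 and 407 to 468 CPM for EPCAM.

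The High-fertile class had the highest mean of all members but CFB. All 10 members had a log2 fold change below 0 in Sub-fertile against High-fertile endometrium, where 49.0% of all genes tested did, and 9 of 10 in Infertile against High-fertile endometrium, where 46.5% did. The median over the members was -0.80 in the Sub-fertile comparison against 0.01 over all genes, and -0.63 in the Infertile comparison against 0.04. None of these differences passed the adjusted threshold. Since the members were chosen with earlier results of these data known, their counts and medians are a description beside those of all genes. The edgeR test called 0 genes of the whole table in each comparison, beside 2738 genes (13.7%, Sub-fertile against High-fertile), 2201 (11.0%, Infertile against High-fertile) and 525 (2.63%, Infertile against Sub-fertile) at an unadjusted p under 0.05. DESeq2 called 18, 34 and 11 genes in the same order, with no member among them, and gave no p for CFB.

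At an unadjusted p under 0.05, 7 of 10 members were lower in the Sub-fertile than in the High-fertile class, against 7.14% of all genes. These were C1QA, C1QB, C1QC, SERPING1, C4A, C3 and CFD. In Infertile against High-fertile endometrium 6 members were lower (C1R, C1S, SERPING1, C4A, C3 and CFD), against 3.89% of all genes, and CFB was higher, where 7.14% of genes were. Between Infertile and Sub-fertile endometrium 4 of 10 members had a log2 fold change below 0 (45.3% of all genes did), and CFB alone reached an unadjusted p under 0.05 upward, where 1.91% of genes did. The 7 members of the Sub-fertile comparison passed the adjusted threshold in limma-voom with sample quality weights, with adjusted p values of 0.00399 to 0.0108, in an analysis that called 7162 genes. Without High-fertile 5, the library with the highest value of 7 members, 2 members (C4A and CFD) kept an unadjusted p under 0.05 in the Sub-fertile comparison. The share of all genes at that p without this library is not reported here.

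**Figure D1:**
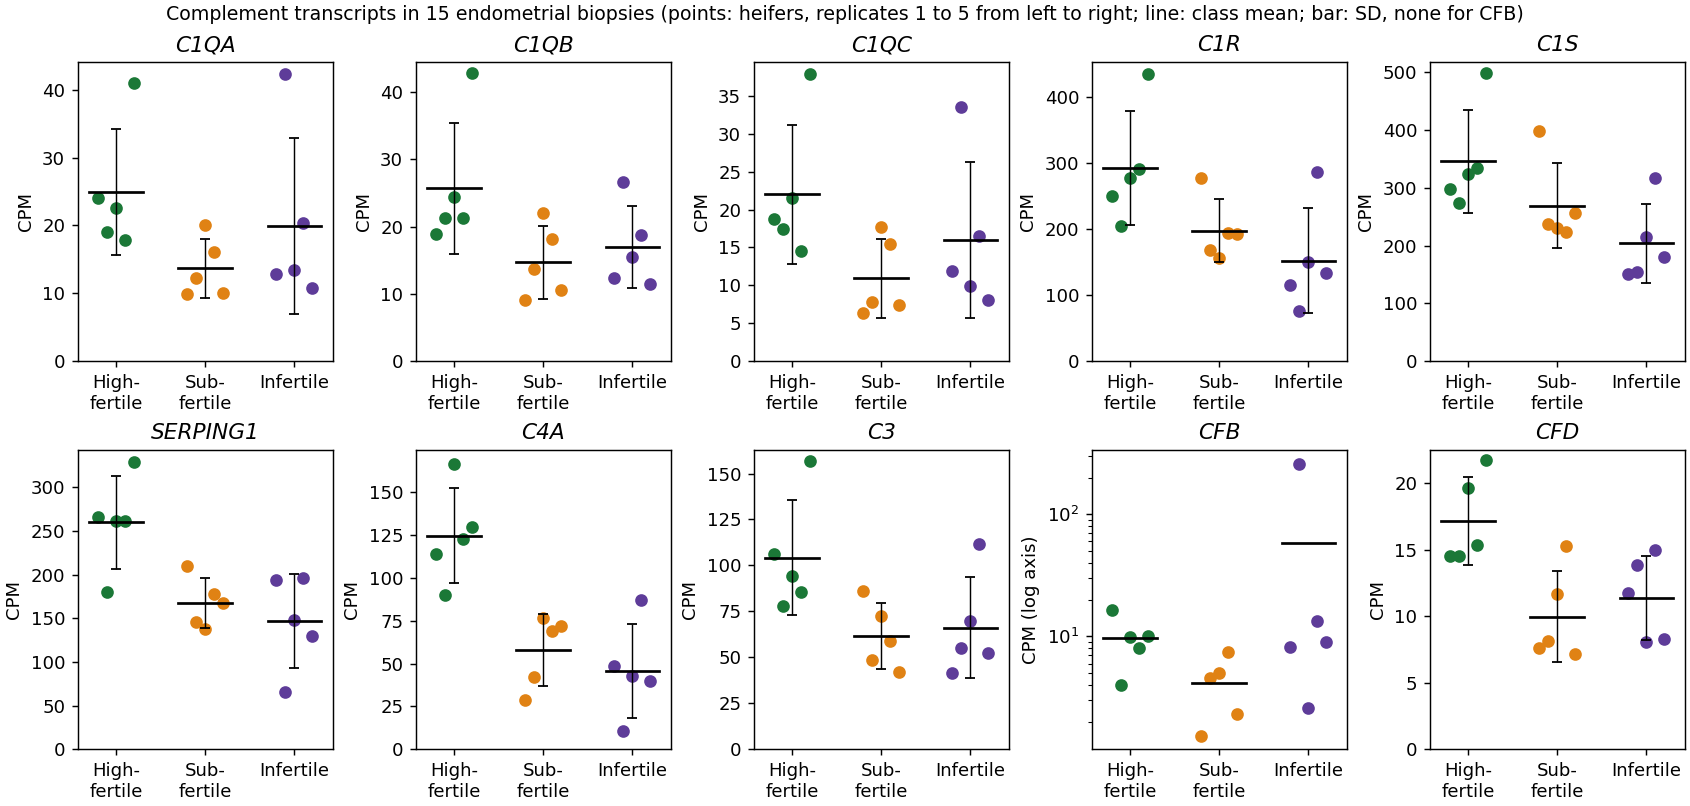
CPM of the 10 complement genes in each heifer, by fertility class on the x axis, with the class mean as a line and the SD (n = 5) as a bar. The panel of CFB has a log axis and no SD bar. The 5 High-fertile values of C4A lie between 90.2 and 167, all above the other libraries, while CFB in Infertile 2 stands at 260.

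**Figure D2:**
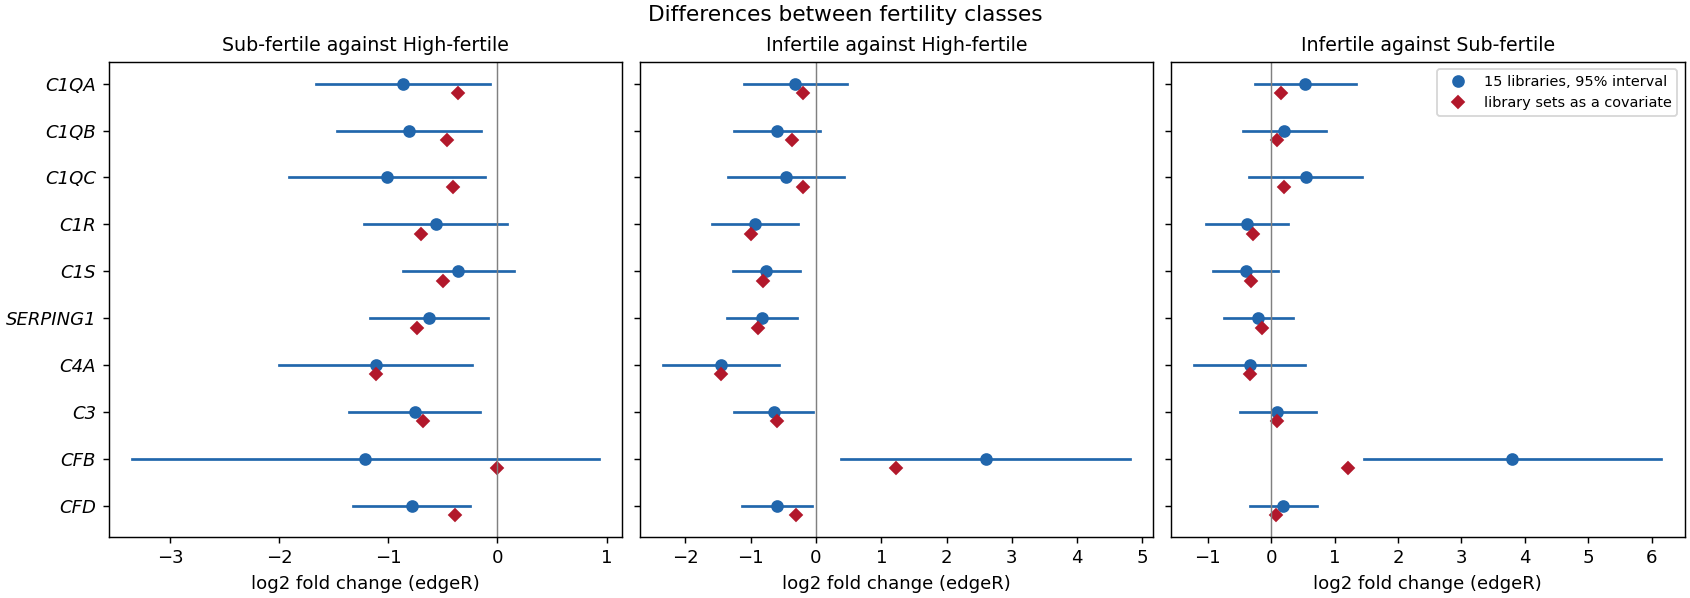
Log2 fold change of each gene in the 3 comparisons, as circles with 95% intervals from the 15-library fit and as diamonds with the library sets as a covariate. The C1q chains and CFD lie nearer to 0 with the sets in the model, as does CFB in Sub-fertile against High-fertile endometrium. C1R, C1S, SERPING1 and C4A stay at or below their values without the sets in both comparisons with the High-fertile class.

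The C1q chains, which assemble into the recognition subunit of C1, had class means highest in High-fertile and lowest in Sub-fertile endometrium. C1QC was at 18.7, 17.5, 21.5, 14.5 and 37.9 CPM in the High-fertile libraries 1 to 5, at 6.37, 7.81, 17.7, 15.4 and 7.40 in the Sub-fertile ones, and at 11.8, 33.5, 9.97, 16.6 and 8.07 in the Infertile ones. The Sub-fertile libraries thus split into 3 near 7 CPM and 2 within the High-fertile range, and Infertile 2 was the second highest of all. C1QA ran from 17.9 to 41.0 CPM in High-fertile libraries (median 22.6), from 9.95 to 20.1 in Sub-fertile ones (median 12.3) and from 10.8 to 42.3 in Infertile ones (median 13.4). C1QB ran from 18.8 to 42.8 (median 21.3), from 9.04 to 22.03 (median 13.6) and from 11.5 to 26.6 (median 15.5) in the same order. The classes overlapped for all C1q chains, with a single library, High-fertile 5 or Infertile 2, at the top of each.

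In Sub-fertile against High-fertile endometrium the log2 fold change was -0.87 ± 0.365 for C1QA, -0.81 ± 0.303 for C1QB and -1.01 ± 0.413 for C1QC. The unadjusted edgeR p values were 0.0317, 0.0176 and 0.0276, and the adjusted edgeR p was 0.3595 for each. In Infertile against High-fertile endometrium it was -0.32 ± 0.363, -0.60 ± 0.302 and -0.46 ± 0.409 in the same order, with adjusted p values of 0.714, 0.463 and 0.635. These Infertile values depended on Infertile 2: without it they were -0.80 for C1QA, -0.82 for C1QB and -0.92 for C1QC, at unadjusted edgeR p values of 0.0155, 0.0152 and 0.0235. Without High-fertile 5 the Sub-fertile values were -0.61, -0.55 and -0.72. Macrophage markers ran alongside: 9 of 10 tested markers had a log2 fold change below 0 in Sub-fertile endometrium (median -0.48, 3 of them at an unadjusted p under 0.05) and 8 of 10 in Infertile endometrium (median -0.19). Without High-fertile 5 these medians were -0.32 (9 of 10 below 0) and -0.04 (6 of 10). The Infertile median was -0.05 without Infertile 1 and -0.45 without Infertile 2. The summed level of these markers was 91.6 to 180 CPM in High-fertile, 85.2 to 100.4 in Sub-fertile and 66.4 to 173 in Infertile libraries, and their part in the C1q values was not tested. In bulk tissue fewer cells of a type and less RNA per cell cannot be told apart.

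C1R and C1S, the serine proteases carried by C1q, were among the most abundant members and followed another order of classes, with the lowest mean in Infertile endometrium. C1S was at 298, 273.7, 323, 334 and 499.7 CPM in the High-fertile libraries 1 to 5, at 399, 237, 230, 224 and 257 in the Sub-fertile ones, and at 151, 154, 215.5, 317.5 and 181 in the Infertile ones. Infertile 4 lay within the High-fertile range and the other Infertile libraries below it, while Sub-fertile 1 had the second highest value of all 15. C1R was at 249.8, 205, 277, 291 and 434 CPM, at 277, 169, 155, 194 and 192, and at 114, 75.9, 150.2, 286 and 133 in the same order of classes. Infertile 2 had the lowest C1R value of all, at the same time as the highest C1QA value.

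The Infertile class mean of C1R was 152 ± 79.8 CPM against 291.5 ± 86.4 in the High-fertile class (SD, n = 5), a log2 fold change of -0.94 ± 0.301 (edgeR unadjusted p = 0.00710, adjusted p = 0.435). For C1S the means were 204 ± 68.5 and 346 ± 89.2 CPM, a log2 fold change of -0.76 ± 0.235 (edgeR unadjusted p = 0.00556, adjusted p = 0.435). In Sub-fertile endometrium the differences were smaller, -0.56 ± 0.300 for C1R (edgeR adjusted p = 0.370) and -0.36 ± 0.234 for C1S (adjusted p = 0.429). Infertile and Sub-fertile endometrium differed by -0.38 for C1R and -0.40 for C1S, at an adjusted p of 0.998 by edgeR. Leaving out Infertile 4 brought these to -0.72 and -0.60, with unadjusted p values of 0.00933 and 0.0113 and an adjusted p of 1.

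SERPING1, the inhibitor that dissociates C1r and C1s from C1q, stood at 266, 180.5, 262, 261 and 329 CPM in High-fertile, at 209.9, 146, 138, 178 and 167 in Sub-fertile, and at 194, 64.9, 148, 196 and 129.5 in Infertile libraries. High-fertile 2 was the only High-fertile library inside the ranges of the other classes, and Infertile 2 lay below all others. The log2 fold change was -0.63 ± 0.248 in Sub-fertile endometrium (edgeR unadjusted p = 0.0227, adjusted p = 0.3595) and -0.83 ± 0.249 in Infertile endometrium (unadjusted p = 0.00468, adjusted p = 0.435). Without High-fertile 5 the Sub-fertile value was -0.53 with an unadjusted p of 0.0609.

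C4A, the component cleaved by C1s and by the lectin pathway proteases, was the member in which the classes did not overlap. It stood at 114, 90.2, 167, 123 and 129.8 CPM in High-fertile libraries, at 28.5, 42.4, 76.6, 69.0 and 71.8 in Sub-fertile ones, and at 48.8, 10.6, 42.7, 86.9 and 39.6 in Infertile ones. Every High-fertile value exceeded every other value, although High-fertile 2 at 90.2 lay close to Infertile 4 at 86.9. Separation of this kind, with the High-fertile class on top, held for 2.81% of all genes in the Sub-fertile and 1.10% in the Infertile comparison. The class means were 125 ± 27.9, 57.7 ± 21.1 and 45.7 ± 27.3 CPM (SD, n = 5). The log2 fold change was -1.11 ± 0.405 in Sub-fertile endometrium (edgeR unadjusted p = 0.0151, adjusted p = 0.3595) and -1.45 ± 0.409 in Infertile endometrium (unadjusted p = 0.00298, adjusted p = 0.435). Infertile 2 was again the lowest library, and without it the Infertile value was -1.20.

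The table lists other entries that it describes as C4 or C4-like, LOC617696, LOC781663 and LOC100852118, so reads of near-identical copies could have been split and the level of C4A alone is uncertain. C4A took 17.8% to 28.4% of the reads of these 4 entries (median 23.4%), and LOC100852118 took the largest median share, 35.4%. The sum of the 4 was 489.7 ± 121 CPM in High-fertile, 249 ± 89.9 in Sub-fertile and 207 ± 114 in Infertile endometrium (SD, n = 5). Each of the other entries was lower as well, with log2 fold changes of -0.83 to -1.06 in Sub-fertile and -1.03 to -1.32 in Infertile endometrium. With their reads summed, a setting chosen after the data had been seen, the log2 fold changes were -0.98 and -1.24 (edgeR adjusted p = 0.36 and 0.436). In RefSeq's annotation of another assembly, ARS-UCD2.0, LOC781663 is the protein-coding neighbour of C4A, as C1S is of C1R and C1QA of C1QC.

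C3, on which all complement pathways meet, stood at 106, 77.9, 94.1, 85.4 and 157 CPM in High-fertile, at 86.2, 48.5, 72.5, 58.6 and 42.1 in Sub-fertile, and at 41.3, 55.0, 69.9, 112 and 52.6 in Infertile libraries. Sub-fertile 1 and Infertile 4 were the only libraries of their classes to enter the High-fertile range. The log2 fold change was -0.76 ± 0.276 in Sub-fertile endometrium (edgeR unadjusted p = 0.0150, adjusted p = 0.3595) and -0.65 ± 0.275 in Infertile endometrium (unadjusted p = 0.0313, adjusted p = 0.4425). The same pair of libraries held the highest C1R and C1S values of their classes. Without High-fertile 5 the C3 values were -0.56 and -0.46, at unadjusted edgeR p values of 0.0555 and 0.110.

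CFB, the alternative pathway counterpart of C2 and its neighbour in RefSeq's annotation, was set apart by a single library. It stood at 16.5, 3.99, 9.83, 8.06 and 10.2 CPM in High-fertile, at 1.54, 4.56, 4.98, 7.52 and 2.30 in Sub-fertile, and at 8.17, 260, 2.58, 13.3 and 9.04 in Infertile libraries. Infertile 2 was 30.2-fold above the median of the other 4 Infertile libraries, which lay within the range of the other classes. The log2 fold change of 2.60 ± 1.02 in Infertile against High-fertile endometrium (edgeR unadjusted p = 0.0223, adjusted p = 0.439) became -0.23 without that library (unadjusted p = 0.661). Against Sub-fertile endometrium it was 3.80 ± 1.08 with it (edgeR unadjusted p = 0.00302, adjusted p = 0.998) and 0.98 without it. In Infertile 2 the mean log2 CPM of the neutrophil markers was 4.59, against -0.17 to 2.59 in the other libraries, and S100A12, a calcium-binding protein of neutrophils, reached 121 CPM. The part of these markers in the CFB value was not tested.

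CFD, the protease that cleaves factor B, stood at 14.5, 14.5, 19.7, 15.3 and 21.7 CPM in High-fertile, at 7.63, 8.13, 11.7, 15.2 and 7.15 in Sub-fertile, and at 11.7, 13.8, 8.07, 14.99 and 8.28 in Infertile libraries. Sub-fertile 4 and Infertile 4 entered the High-fertile range and the remaining 8 libraries of their classes lay below it. CFD had the smallest p of the members in Sub-fertile against High-fertile endometrium, with a log2 fold change of -0.78 ± 0.246 (edgeR unadjusted p = 0.00625, adjusted p = 0.3595). In Infertile endometrium it was -0.59 ± 0.245 (unadjusted p = 0.0291, adjusted p = 0.439). An entry described as factor D-like, LOC104972838, held a median of 12.8% of the reads of both entries, and with reads summed the CFD values were -0.72 and -0.57. Adipocytes are a known source of factor D, and the summed adipocyte markers were at 4.87 to 11.6 CPM. PLIN1, which encodes a lipid droplet coat protein, made up nearly all of that sum at 4.76 to 11.5 CPM, and ADIPOQ and CIDEC reached at most 0.168 and 0.198 CPM while LEP was at 0 in every library. Their part in the CFD values was not tested.

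**Figure D3:**
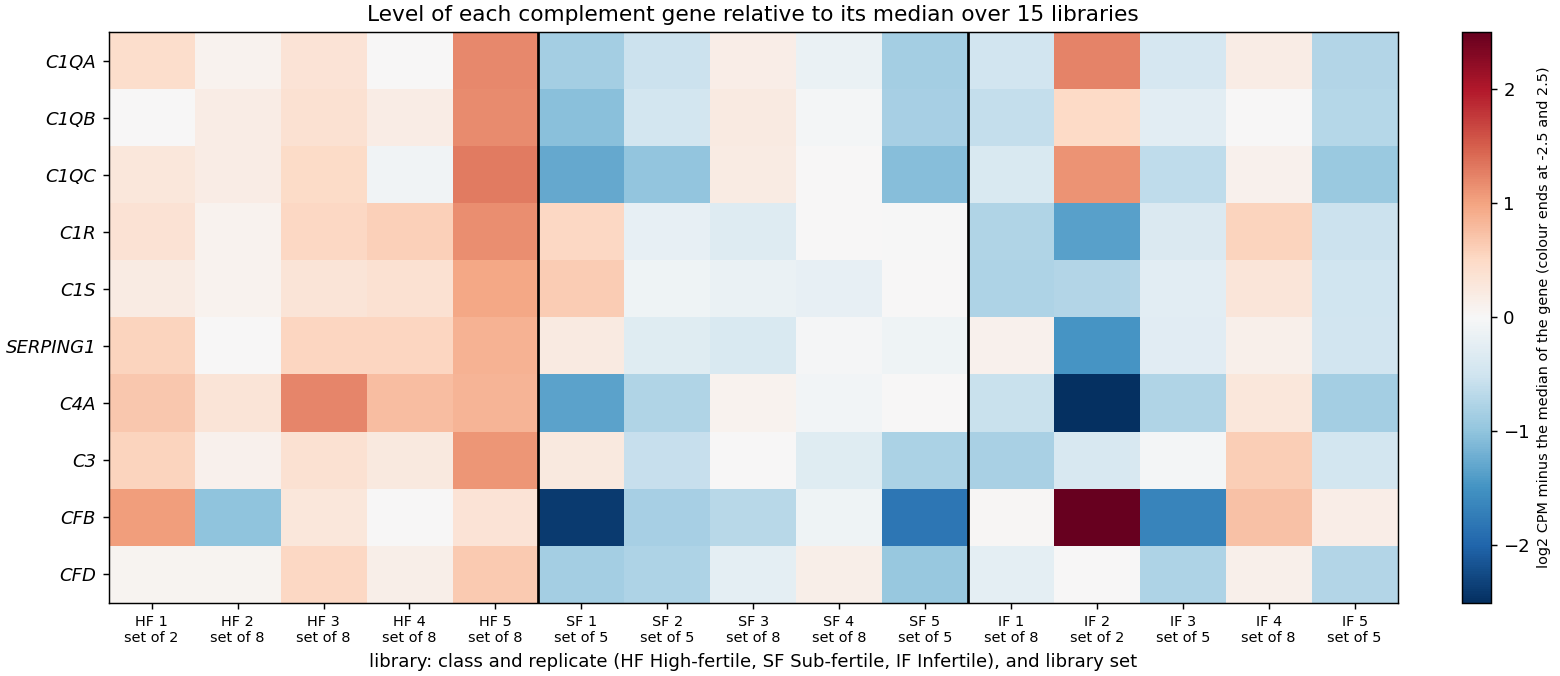
Log2 CPM of each gene minus its median over the 15 libraries, with libraries in columns by class and replicate and the library set written under each. High-fertile 5 is above the median for all 10 genes, Infertile 2 is high for the C1q chains and CFB and low for C1R, C1S, SERPING1 and C4A, and the set of 5 is low for C1QC and CFD.

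The library sets were compared for each member, with class in the model. Between the 5-library and the 8-library set CFD differed by -0.80 ± 0.143 (edgeR adjusted p = 0.00109) and C1QC by -1.09 ± 0.295 (adjusted p = 0.0141). No other member passed the adjusted threshold. Of all genes 30.7% passed it, and 17.6% did so with lower values in the 5-library set. A difference between these sets is thus not particular to CFD and C1QC. Their values did not overlap: C1QC was at 6.37 to 9.97 CPM in the 5 libraries and at 11.8 to 37.9 in the 8, and CFD at 7.15 to 8.28 and at 11.7 to 21.7. The share of all genes that separate these sets in this way is not reported here. C1QA and C1QB differed by -0.74 and -0.68 (edgeR adjusted p = 0.0668 and 0.0812), and CFB by -1.33 (adjusted p = 0.110). For C1R, C1S, SERPING1 and C3 the difference between sets was -0.01, 0.12, -0.04 and -0.19, with adjusted p values of 0.684 to 0.992, and for C4A it was -0.48 ± 0.366 (adjusted p = 0.363).

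With the sets as a covariate, the Sub-fertile against High-fertile values of the C1q chains were -0.36 for C1QA, -0.46 for C1QB and -0.41 for C1QC, and CFD was at -0.39 and CFB at -0.00. C1R, C1S, SERPING1, C4A and C3 were at -0.70, -0.50, -0.74, -1.11 and -0.68. In that model 3 members (SERPING1, C4A and CFD) had an unadjusted p under 0.05 in the Sub-fertile comparison and 4 (C1R, C1S, SERPING1 and C4A) in the Infertile one, where the log2 fold changes of these 4 lay between -0.81 and -1.45. The share of all genes at that p in this model is not reported here, so these counts cannot be set against it. Within the 8-library set alone, with 4 High-fertile, 2 Sub-fertile and 2 Infertile heifers, C4A was at -0.82 in Sub-fertile (edgeR unadjusted p = 0.0252) and -0.92 in Infertile endometrium (unadjusted p = 0.0156), and SERPING1 at -0.72 (unadjusted p = 0.0176) and -0.42 (unadjusted p = 0.116). Since no High-fertile library is in the 5-library set, class and set cannot be fully told apart for genes that differ between the sets. This applies to the C1q chains, CFD and CFB among the members, and to C8G and CFP among the other complement genes described below. For CFB the Sub-fertile against High-fertile value was -1.21 without the sets in the model and -0.00 with them.

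**Figure D4:**
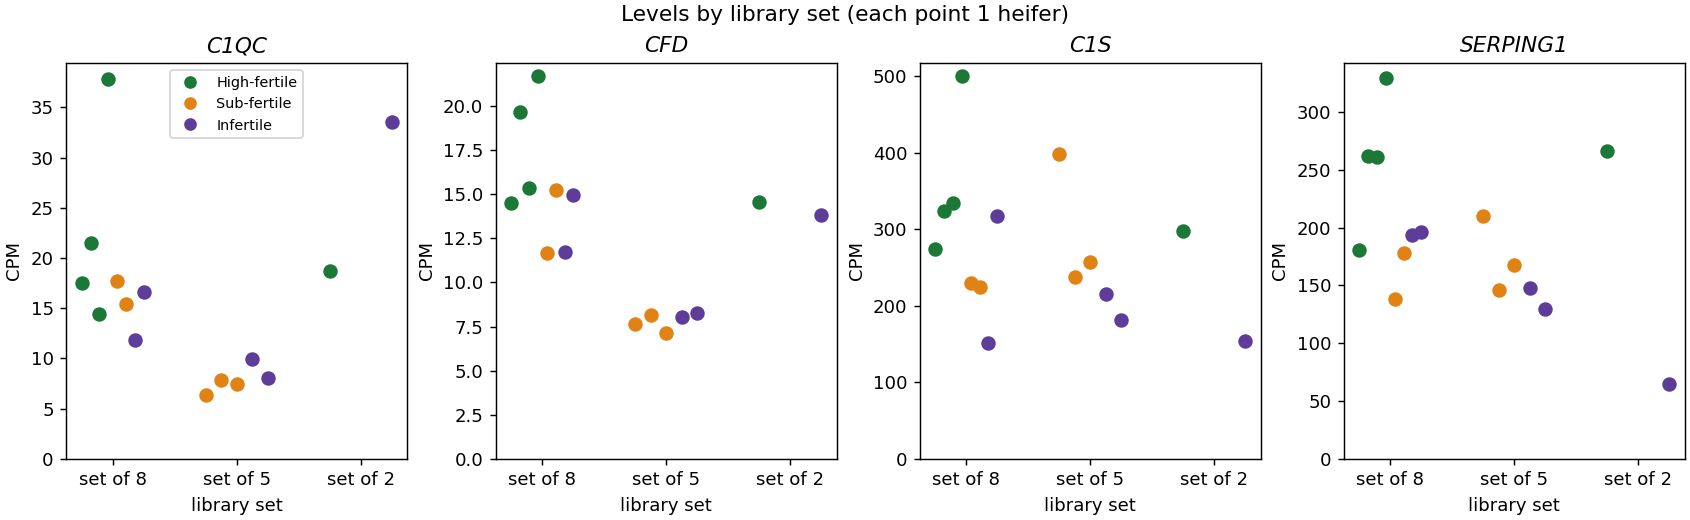
CPM of C1QC, CFD, C1S and SERPING1 by library set on the x axis, each point a heifer coloured by class. C1QC and CFD in the set of 5 lie below all 8 libraries of the largest set, while C1S and SERPING1 overlap between those sets.

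Between genes, levels were compared as FPKM, fragments scaled to gene length and library size, since CPM does not allow for gene length. SERPING1 (median 90.8 FPKM over 15 libraries) and C1S (median 90.5) came first, and SERPING1 was above C1S in 6 of 15 libraries, so their order did not hold between heifers. C1R followed at 70.5 FPKM and was below C1S in 15 of 15 libraries. C4A (19.9), C3 (14.6), C1QA (14.3), CFD (14.0), C1QC (13.9) and C1QB (11.02) formed a lower group in which neighbours changed places, except that C1QC was above C1QB in 14 of 15. The C4A value leaves out the other C4 entries, whose medians were 24.9 (LOC617696), 17.6 (LOC781663) and 16.2 FPKM (LOC100852118). The place of C4 as a whole among the members is therefore not given by this order. CFB was lowest at 3.11 FPKM but ranged from 0.63 to 107, while the largest range of any other member was 15.5-fold, in C4A.

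Ratios within a library showed how far the parts of C1 kept step. C1QA per C1QB in FPKM had a median of 1.30 and C1S per C1R a median of 1.28, with the highest values, 2.20 and 1.95, both in Infertile 2. SERPING1 per the mean of C1R and C1S had a median of 1.05, with the lowest value, 0.787, in Infertile 2 and the highest, 2.03, in Infertile 1. The C1 proteases per C1q chain were less fixed: the ratio of the means had a median of 6.22, was 5.45 to 8.42 in High-fertile libraries, reached 19.1 in Sub-fertile 1 and was 1.54 in Infertile 2. C4A per C3 had class means of 1.81 ± 0.524 in High-fertile, 1.49 ± 0.720 in Sub-fertile and 1.02 ± 0.514 in Infertile endometrium (SD, n = 5), and their ranges overlapped. That ratio leaves out the other C4 entries. Read counts summed over all C4 entries, per C3 count and not scaled to gene length, had class means of 4.82, 4.37 and 3.17 in the same order, with overlapping ranges.

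Across the 15 libraries the closest correlations of log2 CPM lay within the C1q chains and between C1R and C1S. The C1q chains varied together, with Pearson's r of 0.976 for C1QA and C1QC (Spearman's rho 0.971, adjusted permutation p = 0.000112 and 0.000150), 0.946 for C1QB and C1QC and 0.927 for C1QA and C1QB. C1QC and CFD gave r = 0.881 and rho = 0.764 (adjusted permutation p = 0.000225 and 0.00634). C1R and C1S gave r = 0.959 and rho = 0.950 (adjusted permutation p = 0.000112 and 0.000150), and were followed by SERPING1 (r = 0.887 and rho = 0.836 with C1R) and C3 (r = 0.818 and rho = 0.800 with C1S). C4A went with SERPING1 (r = 0.839 and rho = 0.732), C1R (r = 0.759 and rho = 0.736) and C1S (r = 0.602 and rho = 0.621), each with both adjusted permutation p values under 0.05. Without the 2 libraries farthest from the median, r was 0.963 for C1QA and C1QC, 0.821 for C1QC and CFD, 0.954 for C1R and C1S, 0.742 for C1R and SERPING1, 0.668 for C1S and C3 and 0.629 for SERPING1 and C4A. On deviations from class means C4A gave r = 0.679 with SERPING1, 0.540 with C1R and 0.240 with C1S (adjusted permutation p = 0.0363, 0.110 and 0.564).

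Of the 45 pairs, 18 had both adjusted permutation p values under 0.05, and 13 of these also had one under 0.05 on deviations from the class means. C1QA gave r of 0.120 with C1R, 0.198 with C1S and 0.0150 with SERPING1, with adjusted permutation p values of 0.584 to 0.957. Within the 8-library set these were 0.821, 0.890 and 0.618. C3 was not set apart from the C1q chains in this way: it gave r = 0.568 with C1QA, 0.624 with C1QB and 0.544 with C1QC (adjusted permutation p = 0.0601, 0.0316 and 0.0759), and C3 with CFD gave r = 0.643 and rho = 0.614 (adjusted permutation p = 0.0292 and 0.0374). CFD gave r = 0.421 with C1R, 0.362 with C1S and 0.431 with SERPING1. On deviations from class means C3 with CFD gave r = 0.358 (adjusted permutation p = 0.344). Of the pairs above, C1QA and C1QC gave r = 0.981 within the 8-library set, C1QC and CFD 0.804, and C1R and C1S 0.979. CFB with C1QA gave r = 0.743 over all libraries but 0.264 in the 8-library set.

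**Figure D5:**
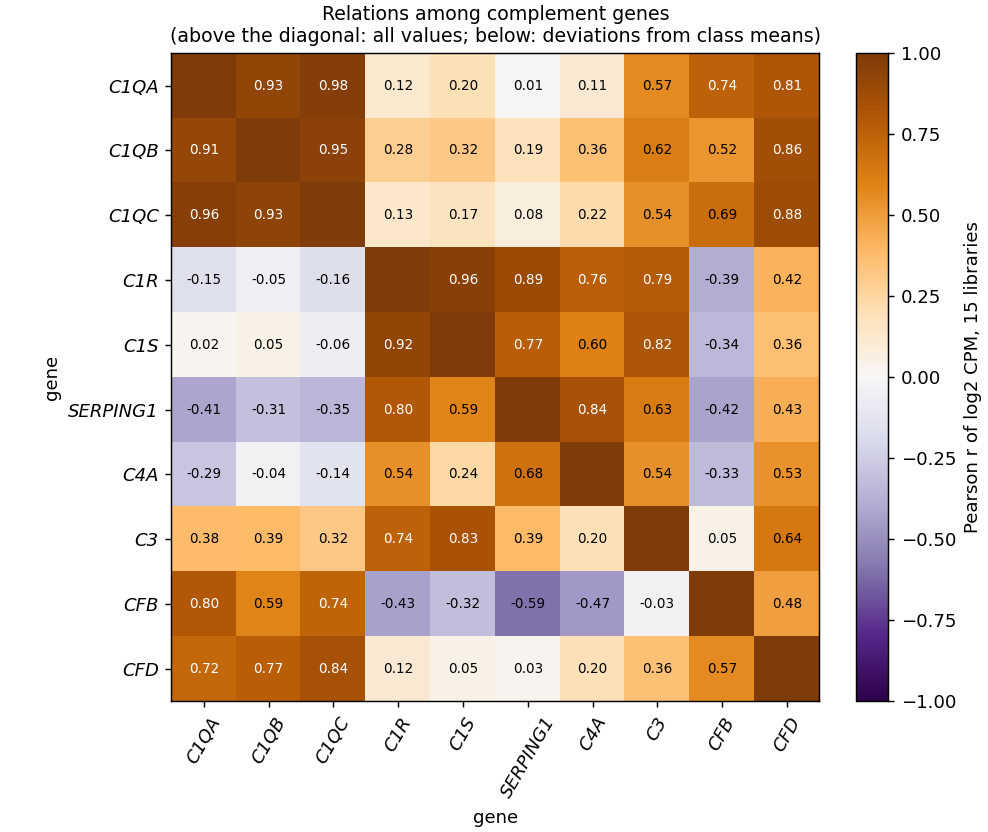
Pearson's r of log2 CPM for each pair of the 10 genes over 15 libraries, above the diagonal from all values and below it from deviations from class means. Above the diagonal the C1q chains and CFD show high values with each other, as do C1R, C1S and SERPING1. Values between the C1q chains and C1R, C1S and SERPING1 are 0.0150 to 0.316, and C3 gives 0.544 to 0.624 with the C1q chains and 0.643 with CFD.

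Members were also set against the mean log2 CPM of markers of cell types and of interferon-stimulated genes, in 130 pairs. CFD with endothelium was the only pair with both adjusted permutation p values under 0.05, at r = 0.893 (adjusted permutation p = 0.00260) and rho = 0.857 (adjusted permutation p = 0.00780). It gave r = 0.837 without High-fertile 3 and 5, 0.865 on deviations from class means and 0.929 in the 8-library set. All 6 endothelial markers, among them VWF and PECAM1, had log2 fold changes below 0 in both lower classes, with medians of -0.53 and -0.55 (-0.37 and -0.35 without High-fertile 5), and their summed level was 505.5 to 994 CPM in High-fertile, 357 to 687 in Sub-fertile and 367 to 641.5 in Infertile libraries. Their part in the CFD difference was not tested.

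C1QA gave r = 0.804 with the macrophage markers (rho = 0.646, adjusted permutation p = 0.00884 and 0.188), which was 0.554 without High-fertile 5 and Infertile 2 and 0.931 in the 8-library set. The largest r of a C1q chain with any list was 0.838, for C1QC with endothelium (rho = 0.768, adjusted permutation p = 0.00715 and 0.0806). Interferon-stimulated genes such as MX1 had log2 fold changes below 0 in Infertile against High-fertile endometrium for 15 of 15 genes tested, with a median of -0.83 (13 of 15 and -0.58 without High-fertile 1). Their r with the members was 0.0429 (CFB) to 0.399 (CFD), and adjusted permutation p values were 0.464 to 0.933. All 6 B and plasma cell markers were also below 0 in both lower classes, with medians of -3.29 and -2.53, but High-fertile 1 carried much of this. Their mean log2 CPM was 2.75 in that library, -0.79 to -0.32 in the other High-fertile libraries and -2.12 to -0.59 in the lower classes. Without High-fertile 1 the medians were -1.14 (5 of 6 below 0) and -0.72 (6 of 6 below 0). Their summed level was 4.96 to 49.5 CPM in High-fertile libraries and 2.17 to 4.89 CPM in the lower classes. Ciliated cell markers had log2 fold changes above 0 for 6 of 6 genes in Infertile endometrium (median 1.12). Smooth muscle markers had a mean log2 CPM of 5.54 in Infertile 5 and 11.63 in Infertile 1. Their r with C1S was -0.359, and -0.722 on deviations from class means (adjusted permutation p = 0.475 and 0.0452). On those deviations it was -0.655 with C3, -0.577 with C1R (adjusted permutation p = 0.120 and 0.216) and -0.185 to 0.0594 with the other members. The part of these markers in the member values was not tested.

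Among 13103 genes with a symbol and a mean log2 CPM of at least 1, those most like each member in pattern were sought by r over the 15 libraries, as a description. EFHD2, a calcium-binding protein, was nearest to C1QC (r = 0.969) and C1QA (r = 0.960), followed by CFP, which encodes the alternative pathway stabiliser properdin, for C1QC (0.945) and the macrophage glycoprotein gene CD68 for C1QA (0.937). C1QB was nearest to the chromatin remodeller gene CHD4 (0.902) and SCLY (0.899). TRIP10-2 was nearest to both C1R (0.960) and C1S (0.962), with PGF, placental growth factor, next for C1R (0.932) and SIGLEC5 for C1S (0.929). RFTN1 (0.935) and DFFB (0.931) were nearest to SERPING1.

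C3 was nearest to PLAT, tissue plasminogen activator (0.867), and ZNF385C (0.849), and CFD to RAMP1 (0.969), a subunit of calcitonin gene-related peptide receptors, and OGFR (0.965). For C4A the nearest were CBX7 (0.912) and NGRN (0.898), which fell to 0.764 and 0.731 without the 2 farthest libraries. For CFB they were DUT (0.945) and DMBT1 (0.937), which fell to 0.763 and 0.818. DMBT1, a mucosal scavenger protein, ranged from 0.940 to 382 CPM.

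Of the 41 other complement genes listed, 39 were in the table and 32 were tested. Their medians lay nearer to 0 than the members': 20 of 32 were below 0 in Sub-fertile endometrium (median -0.22) and 17 of 32 in Infertile endometrium (median -0.03). At an unadjusted p under 0.05 there were 4 lower and 0 higher in the Sub-fertile comparison, against 7.14% and 6.58% of all genes, and none passed the adjusted threshold. These were C2 (-0.98 ± 0.430), the substrate of C1s, ITGB2 (-0.63 ± 0.260), a subunit of complement receptor integrins, C8G (-0.68 ± 0.297), a terminal component chain, and VSIG4, a macrophage receptor for C3 fragments (-0.87 ± 0.393), with edgeR adjusted p = 0.3595 for each. In Infertile endometrium COLEC11, a lectin pathway recognition gene, was higher (1.52 ± 0.537) and C8G lower (-0.64 ± 0.296), with edgeR adjusted p values of 0.435 and 0.451.

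Regulators of the later steps showed no common direction. CLU, clusterin, was the most abundant at 743 to 3494 CPM, with log2 fold changes of -0.32 ± 0.302 in both lower classes. The membrane regulators CD46, CD55 and CD59 were at 0.15, 0.35 and 0.24 in Sub-fertile and at 0.26, 0.36 and -0.09 in Infertile endometrium, with edgeR adjusted p values of 0.506 to 0.879. Factor I (CFI) was at 0.01 and 0.32, and properdin (CFP) at -0.67 ± 0.348 and -0.39 ± 0.347. C7, of the membrane attack complex, was at -0.04 and 0.19, and the anaphylatoxin receptors C3AR1 and C5AR1 were at -0.21 and -0.54 in Sub-fertile and at 0.01 and -0.36 in Infertile endometrium.

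C4BPA, a C4b-binding inhibitor of the classical pathway, was likewise set apart by Infertile 2. It was at 27.9 CPM in Infertile 2 and at 0.0522 to 2.60 CPM in the other 14 libraries, and its log2 fold change in Infertile against Sub-fertile endometrium was 3.79 ± 1.27 (edgeR unadjusted p = 0.00928, adjusted p = 0.998). VSIG4 was also highest in Infertile 2, at 5.51 CPM, and differed by 1.00 ± 0.394 in that comparison (unadjusted p = 0.0232). Between Infertile and Sub-fertile endometrium 2 of the 32 genes (C4BPA and VSIG4) were higher at an unadjusted p under 0.05, against 1.91% of all genes.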

How the data were processed

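Endometrial polyA RNA from 15 heifers was sequenced from stranded TruSeq libraries, per the labels' protocols. The deposited table holds whole-number read counts per gene and FPKM values per library. FastQC, Subread, featureCounts, edgeR and the genome build UMD3.1 are named in the submitters' processing notes. On their versions, the strand setting and the handling of reads with several origins, nothing is given in the sources used here. Of 32671 entries, 4555 were at 0 in all libraries. The deposited FPKM values served only to compare levels between genes.

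The counts were fitted with edgeR 4.0.16 in R 4.3.3: filterByExpr by class, TMM scaling and a robust quasi-likelihood fit with a mean per class over 15 libraries (12 residual degrees of freedom). P values are two-sided with Benjamini-Hochberg adjustment over 19962 genes. Intervals in the plot of fold changes are 95%. CPM carry TMM factors, and correlations used log2 CPM (prior count 2) and 100000 permutations, whose smallest possible p is 1e-05, adjusted over 45 pairs of members or 130 member and marker pairs. The test was checked on simulated counts. Library sets came from average-linkage clustering.

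The members, gene lists, library sets and tests were chosen with earlier results of these data known. Named were all members, fixed regulators and receptors, the 3 other complement genes of smallest p per comparison, the 2 genes most like each member and the 2 most abundant markers of a list; some genes that this takes are not reported here. VSIG4 in the Sub-fertile comparison, and LEP, ADIPOQ and CIDEC, were named after their values were seen. Alternatives were other scalings and filters, DESeq2 1.42.0, limma 3.58.1 (voom, with and without sample weights), the likelihood ratio test, the sets as a covariate, subsets of libraries and each library left out. No sequences are shown, and RefSeq's annotation, on another assembly, was used for gene neighbours only.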

Additional observations from a re-analysis of the deposited data

Results flagged for a closer look

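In groups of 5 heifers, a library was picked out when its gap to the nearest other, divided by the range of the class, exceeded 0.710 on the log2 scale. This was checked in 51 groups, 3 were picked out, and chance alone picks about 1 in 20. C1S in Sub-fertile 1 (399 CPM) was the highest of its class, with a gap of 0.760 of the range. This library was also the lowest of all 15 for C1QA, C1QB, C1QC and CFB. The C1S per C1R ratio of High-fertile 2 (1.28) was the highest of its class, with a gap of 0.736, although it equals the median over all 15 libraries. The ratio of the C1 proteases to the C1q chains in Infertile 2 (1.54) was the lowest of its class, with a gap of 0.739.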

How the results depend on the processing

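No paired analysis was possible because the labels give no replicate numbers shared between the classes. Genes past the adjusted threshold numbered 0 in each comparison in the edgeR analysis. For Sub-fertile against High-fertile endometrium there were 18 with DESeq2, 7162 with limma-voom with sample weights, 13 with the likelihood ratio test and 3 without the 2-library set. For Infertile against High-fertile endometrium there were 34, 1 (limma-voom without weights) and 8 (likelihood ratio), and for Infertile against Sub-fertile endometrium 11, 1 and 8. For any difference they were 34, 1, 5331 (sample weights) and 43. Members at an unadjusted p under 0.05 numbered 7, 7 and 1. With the sets as a covariate they were 3, 4 and 0, in the 8-library set 2, 2 and 0, and for Infertile against Sub-fertile endometrium also 0 with DESeq2 (which gave no p for CFB), both limma-voom analyses and without the 2-library set. With each library left out the ranges were 2 to 9, 5 to 8 and 0 to 3 members, and 0 to 3 genes past it in the Sub-fertile against High-fertile comparison and 0 to 0 otherwise. The 2 came without High-fertile 5, the 0 without Infertile 2 and the 3 without Infertile 4. Signs turned for CFB in Infertile against High-fertile endometrium (-0.01 with sample weights, -0.23 to 2.90 with libraries left out). In Infertile against Sub-fertile endometrium they turned in the 8-library set for C1QA (-0.12), C1QB (-0.37), C1QC (-0.22), C1R (0.20), C1S (0.05), SERPING1 (0.30) and CFD (-0.01), for C1QB without the 2-library set (-0.01) and with libraries left out (-0.02 to 0.39), and for C3 with libraries left out (-0.16 to 0.25). Causes were not tested, and the 8-library set holds fewer libraries. The scalings, filters and the analysis of 2 classes alone turned no direction of a member.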
